A study of Mus musculus with 6 samples.

Results

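The Nr4a nuclear receptors are the 3 paralogous genes Nr4a1 (NUR77), Nr4a2 (NURR1) and Nr4a3 (NOR1). They were found as the transcript clusters whose only platform gene symbol was Nr4a1, Nr4a2 or Nr4a3, a transcript cluster being a group of probes read together as 1 transcript unit. Each symbol had 1 cluster, so 3 genes out of the 30142 genes named with 1 symbol are described. The family was selected on its knockout minus wild-type differences, those of Nr4a2 and Nr4a3 being known. The members' own knockout and wild-type values are therefore given as a description, with standard errors (SE) but no test.

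Expression was measured in bone marrow hematopoietic stem cells (HSCs), the cells that renew the blood, of CDK19-/- mice (3 arrays) and wild-type mice (3 arrays), all aged 6 to 8 weeks. Cdk19 encodes a cyclin-dependent kinase that belongs to Mediator, the complex through which bound transcription factors reach RNA polymerase II. Marrow of the leg and hip bones was depleted of lineage-positive cells, stained for HSC markers and sorted by flow cytometry. The labels call the arrays biological replicates, but do not give the number of mice per array, the markers of the gate or the deleted part of Cdk19. No treatment of the mice is given for either genotype, and the p-values below measure only the spread between these arrays.

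NR4A proteins are orphan nuclear receptors: the pocket that holds a ligand in other receptors is filled by side chains, so their activity is set largely by how much protein is made and by its modification. All 3 genes are primary response genes, switched on within minutes by cAMP through CREB, by calcium through MEF2 and by growth factors. The proteins bind the DNA motif AAAGGTCA (NBRE) as monomers, and NUR77 and NURR1 can also pair with the retinoid X receptors. In mice, combined loss of Nr4a1 and Nr4a3 leads to acute myeloid leukaemia, and NR4A receptors are known for restraining HSC division.

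The stretch before the start of each gene is shown because CREB acts there through the cAMP response element, whose core is CGTCA on either strand. The sequences are the 250 bases before the RefSeq start (GRCm38.p6), 5′ to 3′ on the strand of the gene. Capitals mark CGTCA or its complement TGACG.
Nr4a1 (chr15:101266596-101266845, + strand): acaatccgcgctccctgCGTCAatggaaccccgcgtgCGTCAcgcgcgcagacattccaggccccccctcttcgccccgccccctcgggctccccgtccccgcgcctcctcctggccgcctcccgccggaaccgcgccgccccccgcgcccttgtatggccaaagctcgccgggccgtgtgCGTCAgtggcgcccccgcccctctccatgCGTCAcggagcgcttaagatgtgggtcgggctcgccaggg
Nr4a2 (chr2:57124004-57124253, - strand): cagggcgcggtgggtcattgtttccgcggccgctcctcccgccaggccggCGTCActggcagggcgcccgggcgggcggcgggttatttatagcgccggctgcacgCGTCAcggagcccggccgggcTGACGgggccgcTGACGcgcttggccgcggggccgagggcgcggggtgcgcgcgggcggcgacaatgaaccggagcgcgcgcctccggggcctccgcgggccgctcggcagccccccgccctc
Nr4a3 (chr4:48045055-48045304, + strand): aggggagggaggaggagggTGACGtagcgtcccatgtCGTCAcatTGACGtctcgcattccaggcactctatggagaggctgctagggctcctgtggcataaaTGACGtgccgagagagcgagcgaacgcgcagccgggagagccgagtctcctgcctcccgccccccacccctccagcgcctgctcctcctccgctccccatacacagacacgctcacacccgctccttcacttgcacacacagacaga
Each of the 3 windows held 4 copies of the core, searched on both strands and counted outside any full element TGACGTCA, of which these windows held 0. The first bases of the copies lay 233, 213, 69 and 40 bases before the start in Nr4a1, 200, 144, 123 and 111 bases before it in Nr4a2, and 231, 213, 205 and 147 bases before it in Nr4a3. Of all 32851 promoter windows of this length 16.6% held at least 1 such core, 2.42% at least 2, and 15 windows (0.0457%) at least 4. The RefSeq gene records of Nr4a1 and Nr4a3 begin upstream of the start used here, so both genes have other annotated starts.

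Nr4a promoters also shared short runs of letters. The longest run common to Nr4a1 and Nr4a2 was GCGTCACGGAGC, which contains the core. It began 41 bases before the start of Nr4a1 and 145 bases before that of Nr4a2 and occurred in 5 of the 32851 windows. Nr4a1 and Nr4a3 shared 2 runs of 10 letters. CATTCCAGGC began 198 and 195 bases before their starts and was held by 46 windows (0.14%), and GCCTCCCGCC began 133 and 96 bases before them and was held by 175 (0.533%). CCTCCCGCC, the longest run common to Nr4a2 and Nr4a3, stood in all 3 Nr4a windows and in 625 of all windows (1.9%). Other motifs were counted on both strands too. The NBRE AAAGGTCA was in 0 of the 3 windows and in 1.34% of all windows. GGGCGG, the letters of a GC box, or its complement CCGCCC occurred 3 times in Nr4a1, 4 times in Nr4a2 and 1 time in Nr4a3, against at least 1 copy in 32.7% of all windows. TATAAA was present 1 time, on the opposite strand (TTTATA as printed), 164 bases before the Nr4a2 start, and at least 1 copy on either strand stood in 12.4% of all windows. The windows were rich in G and C, at 74.4% in Nr4a1, 80% in Nr4a2 and 63.6% in Nr4a3, against a median of 52.4%. Among the 6582 windows with at least the G and C content of Nr4a3, 10 (0.152%) held 4 or more cores. A match describes the letters of the window and shows no binding.

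Cdk19 itself was lower in every knockout array, with 11.49, 11.42 and 11.51 in knockout HSCs against 12.49, 12.45 and 12.38 in wild-type HSCs on the deposited scale, taken as log2 (change -0.97, SE 0.05; limma, Benjamini-Hochberg adjusted p = 3.2e-04). Probes outside the deleted part would still report transcript, but the source of the remaining signal was not tested. Values of the table ran from 2.04 to 19.93, and array medians from 4.4 to 4.48. Of 39543 clusters tested across the whole array, 3086 (7.80%) were called at an adjusted p under 0.05. Of these 1172 (2.96%) were higher and 1914 (4.84%) lower in knockout HSCs. Of the HSC markers, Kit had 14.06, 14.03 and 14.09 in knockout against 14.54, 14.53 and 14.53 in wild-type HSCs, and Cd34 had 15.83, 15.79 and 15.83 against 15.95, 15.92 and 16.04. Procr, Slamf1, Mecom and Fgd5 were above the limit on dim clusters (4.09) too, with wild-type means of 7.29, 5.78, 7.24 and 5.36. Hoxb5 was below it and Ly6a was not analysed here for want of a cluster of its own. Cd48 was also counted in the HSC marker list, although its protein is commonly used to exclude cells from HSC gates. Cd48 had a wild-type mean of 11.30, and the granulocyte marker Mpo had 16.93. The purity of the sorted cells was not tested.

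Nr4a3 differed the most of the 3 paralogues. Its values were 12.01, 11.84 and 11.79 in knockout HSCs, against 9.95, 9.94 and 9.76 in wild-type HSCs. All knockout arrays lay above all wild-type arrays, and the lowest knockout array was 1.84 above the highest wild-type array. The means were 11.88 ± 0.12 in knockout and 9.88 ± 0.11 in wild type (SD, n = 3 each), a log2 difference of 2.0 (SE 0.08), or 3.99-fold. Among 19921 genes tested by their brightest cluster, it ranked 9 by the size of a positive difference.

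Nr4a2 was higher in knockout HSCs as well. It had 14.15, 13.94 and 13.96 in knockout, against 12.61, 12.75 and 12.69 in wild-type HSCs. Here too the genotypes did not overlap, with 1.19 between the nearest arrays. The means were 14.02 ± 0.12 in knockout and 12.68 ± 0.07 in wild type (SD, n = 3 each), a log2 difference of 1.33 (SE 0.07), or 2.52-fold. By that size Nr4a2 ranked 37 of the 19921 genes. Arrays measure a sorted population, in which more cells expressing a gene and more RNA per cell cannot be told apart.

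Nr4a1 barely differed on this scale. It had 18.79, 18.75 and 18.83 in knockout HSCs, against 18.71, 18.70 and 18.71 in wild-type HSCs. The genotypes did not overlap, but only 0.04 separated the nearest arrays, and the log2 difference was 0.08 (SE 0.03), or 1.06-fold. The fit across all clusters called 2 of the 3 genes, Nr4a2 and Nr4a3, where 7.80% of all tested clusters were called, and the genotypes did not overlap for 3 of 3, where this held for 26.5% of all tested clusters and, with knockout higher, for 11.6%. Since the genes were chosen with these differences known, nothing is read from either count.

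**Figure D1:**
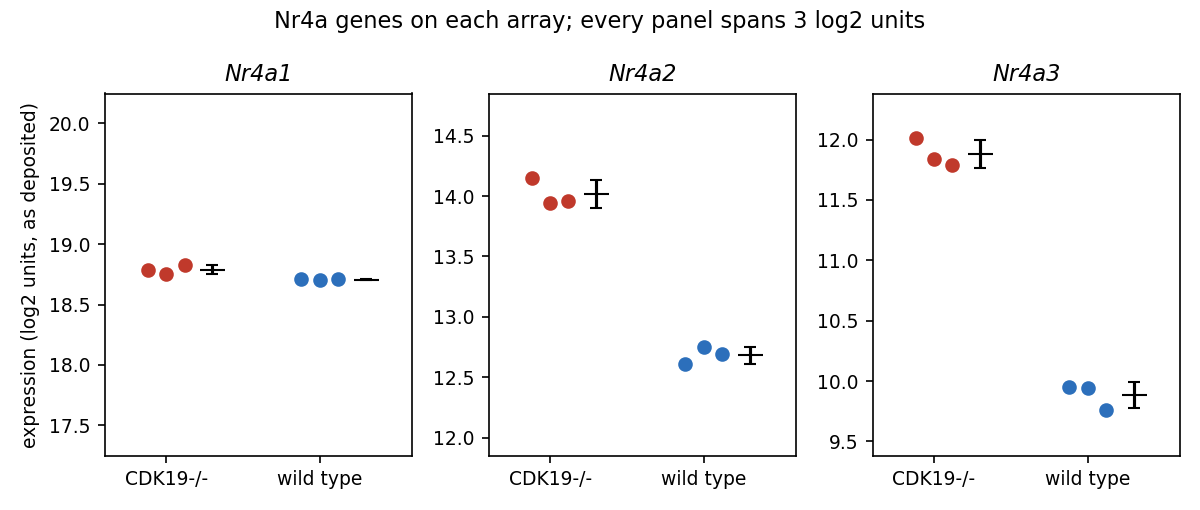
Expression of Nr4a1, Nr4a2 and Nr4a3 on each array (points; y axis in log2 units as deposited, each panel spanning 3 units), with the mean and SD of 3 arrays beside them, for CDK19-/- and wild-type HSCs. Nr4a3 and Nr4a2 are higher by 2.0 and 1.33 in CDK19-/- HSCs, and Nr4a1 by 0.08.

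The paralogues were compared by the difference between their log2 changes, since levels of different probe sets cannot be set against each other. The change of Nr4a3 was larger than that of Nr4a2 by 0.66 (SE 0.08, from differences taken within each array, n = 3 each), a 1.58-fold difference in fold. On the arrays, the Nr4a3 value relative to Nr4a2 spread over 0.07 among knockout and 0.27 among wild-type arrays, with a gap of 0.49 between genotypes. The change of Nr4a3 exceeded that of Nr4a1 by 1.91 (SE 0.10), and the change of Nr4a2 exceeded that of Nr4a1 by 1.25 (SE 0.08). Within the knockout group, array 1 was the highest for both Nr4a2 and Nr4a3, 0.13 above the knockout mean in each, while Nr4a1 was highest on array 3, 0.04 above it. Wild-type arrays showed no such match: Nr4a3 was lowest on array 3 and Nr4a2 on array 1. A peak on knockout array 1 was not particular to these genes. The mean of the tested genes that signal to Nr4a promoters was 9.74 there, against 9.61 and 9.66 on knockout arrays 2 and 3. That of the primary response genes was highest on knockout array 3, at 12.44.

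Nr4a1 was read near the top of the scale. Its mean over the 6 arrays, 18.75, was 1.18 below the highest value of the table, whereas that of Nr4a2 was 13.35 and that of Nr4a3 was 10.88. In clusters within 0.5 of the Nr4a1 level, 2 of 167 were called (1.2%), the median size of the log2 change was 0.03 and the largest was 0.33. Within 0.5 of the Nr4a2 level 110 of 538 clusters were called (20.4%), with a largest size of 2.11, and 4 clusters had a larger positive difference than Nr4a2. Within 0.5 of the Nr4a3 level 235 of 1238 were called (19%), and 0 had a larger positive difference than Nr4a3. In the band of Nr4a1, 16 clusters had a larger positive difference than Nr4a1. Slightly dimmer clusters moved more often: of 325 between 17 and 18, 140 were called (43.1%), with a largest size of 1.02. Above a level of 19, where 164 clusters lay, 0 were called and the largest size was 0.24. No cluster as bright as Nr4a1 differed between genotypes by an amount like that of Nr4a2 or Nr4a3, and what part its level has in the small difference of Nr4a1 was not tested.

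**Figure D2:**
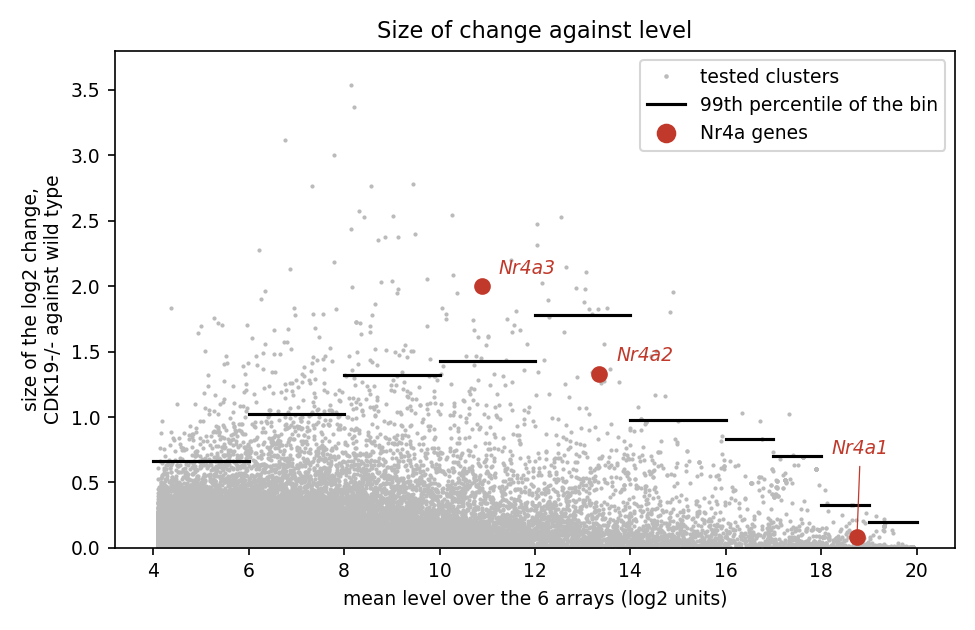
Size of the log2 change between CDK19-/- and wild-type HSCs (y axis) against the mean level over 6 arrays (x axis, log2 units) for 39543 tested clusters (grey), with the 99th percentile in each bin of level (black lines) and the Nr4a genes (red). The percentile is 1.78 for levels of 12 to 14 and 0.33 for levels of 18 to 19, where Nr4a1 lies.

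Like most genes, most other nuclear receptors did not pass the test. Of 46 receptors outside the Nr4a family, 40 had a cluster of their own, 21 of these were too dim to test and 19 were tested. Of the 19, 1 rose and 2 fell, 15.8% called, against 9.39% of all 19921 genes (3.51% higher, 5.88% lower). The median log2 change was -0.03, against 0.00 for all genes. Wild-type means of the 19 ran from 4.51 (Nr6a1) to 10.24 (Nr2c2). Of clusters at levels of 4 to 6, 2.46% were called, at 6 to 8 9.92%, at 8 to 10 15.8% and at 10 to 12 18.4%. Rara, a retinoic acid receptor gene with a role in myeloid differentiation, had 9.71, 9.25 and 9.68 in knockout and 8.47, 8.82 and 8.76 in wild-type HSCs. Its rise was 0.86 (SE 0.15; limma adjusted p = 0.020), and it was called in 1 of 6 runs that left out an array (adjusted p 0.014 to 0.068). The orphan receptor gene Nr2c1 fell by 0.33 (adjusted p = 0.022) and Hnf4a, best known from liver, fell by 0.38 (adjusted p = 0.035), and both lost the call in all 6 such runs. In the order of log2 changes Nr4a3 and Nr4a2 stood first and second among the 22 tested receptors, and Nr4a1 sixth.

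The retinoid X receptors are dimer partners of NUR77 and NURR1. Rxra had 6.04, 6.19 and 6.08 in knockout and 6.06, 6.11 and 6.12 in wild-type HSCs, a difference of 0.01 (SE 0.07). Rxrb had 7.59, 7.29 and 7.43 in knockout and 7.63, 7.69 and 7.76 in wild-type HSCs, a difference of -0.26 (SE 0.09; adjusted p = 0.16). Rxrg was too dim to test. Neither tested partner passed, where 9.39% of all genes were called. For Rxrb all knockout arrays lay below all wild-type arrays, and the genotypes did not overlap for 26.5% of all tested clusters.

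**Figure D3:**
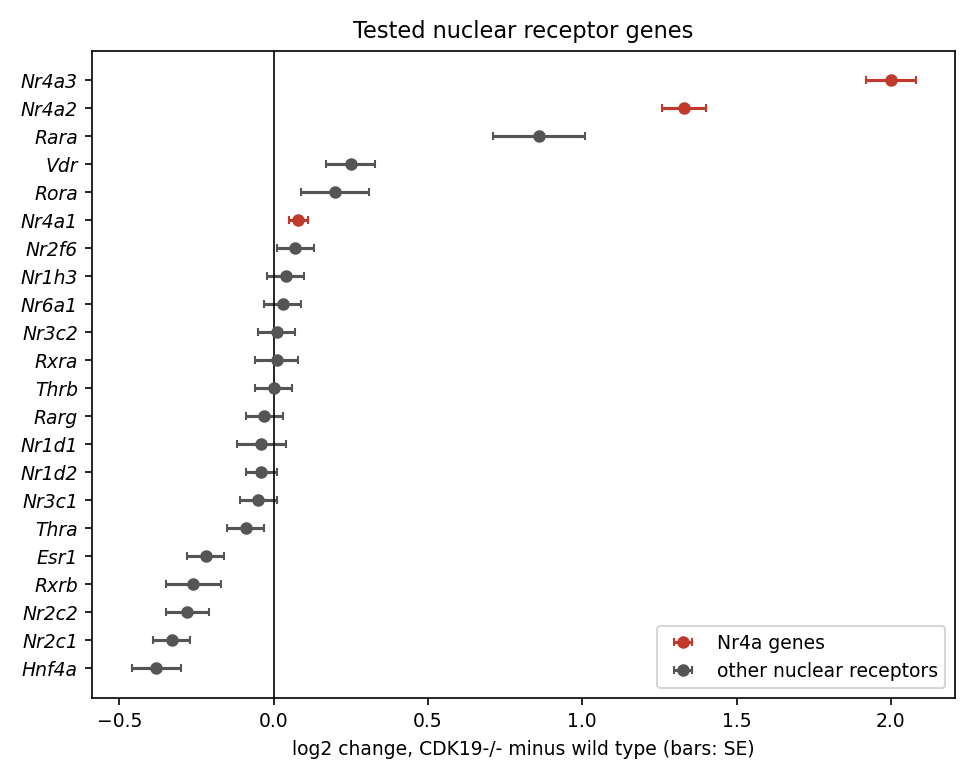
Log2 change with its SE (x axis, CDK19-/- minus wild type) for the 22 tested nuclear receptor genes (rows, largest first), Nr4a genes in red. Nr4a3 at 2.0 and Nr4a2 at 1.33 lie above Rara at 0.86, and the other 19 receptors, Nr4a1 among them, lie between -0.38 and 0.25.

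Of 34 genes that signal to Nr4a promoters, 29 were tested, and 3 rose and 2 fell. That is 17.2% called, against 9.39% of all genes, with a median log2 change of 0.03. The share called depended on level. The list's array means were 9.61 to 9.74, and 15.8% of clusters at levels of 8 to 10 were called. Its genes spread over more levels, with wild-type means from 4.96 (Hdac9) to 14.83 (Crebbp). Mef2c, which encodes a MEF2 factor with a role in the lymphoid and myeloid lineages, had 12.95, 12.93 and 12.87 in knockout, against 13.37, 13.26 and 13.38 in wild-type HSCs. It fell by 0.42 (SE 0.05; limma adjusted p = 0.0061). Its relative Mef2d rose by 0.26 (adjusted p = 0.035), a call lost in all 6 runs without an array. Rps6ka3, the kinase gene RSK2 that acts on CREB, rose by 0.45 (SE 0.06; adjusted p = 0.0070), with 11.65, 11.58 and 11.50 in knockout and 11.10, 11.17 and 11.12 in wild-type HSCs. Prkar2a, a regulatory subunit of the cAMP-dependent kinase, rose by 0.39 (adjusted p = 0.037), and the calcineurin-controlled factor gene Nfatc1 fell by 0.46 (adjusted p = 0.037). Prkar2a kept its call in 1 and Nfatc1 in 2 of the 6 runs, whereas Mef2c and Rps6ka3 were called in 6 of 6. The number that rose was 2 without wild-type array 2 and 1 without each other array, and the number that fell was 1 without knockout array 2 or 3 or wild-type array 2 or 3. The genes of CREB itself and of its coactivators did not pass. Creb1 differed by -0.27 (adjusted p = 0.080), Crtc1 by -0.39 (adjusted p = 0.080), Crebbp by 0.08 and Ep300 by -0.01, all chosen after their values were seen.

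Genes known to be induced through cAMP and CREB, a route that can also switch on Nr4a genes, rose in 8 of 13 tested cases. The part of this route in the Nr4a differences was not tested. Of 17 listed, 13 were tested, 0 fell and 5 did not pass. That is 61.5% called higher, against 3.51% of all genes called higher, and the list's median was 0.34. No single level matches this list, whose genes had wild-type means from 4.78 (Ppargc1a) to 18.50 (Dusp1). Of all tested clusters, 2.46% were called in either direction at levels of 4 to 6 and 15.8% at 8 to 10. The share was 17.9% at 12 to 14, 16.2% at 14 to 16, 9.23% at 16 to 17 and 1.02% at 18 to 19. The mean over the 13 genes was 12.65 to 12.67 on the knockout arrays and 12.23 to 12.26 on the wild-type arrays, with no overlap. Ptgs2, encoding the prostaglandin enzyme COX-2, had 14.23, 14.15 and 14.31 in knockout and 12.33, 12.44 and 12.45 in wild-type HSCs, a rise of 1.82 (SE 0.06; limma adjusted p = 7.5e-05). Per1, a clock gene with a CREB-driven promoter, had 14.62, 14.49 and 14.49 in knockout and 13.87, 13.88 and 13.87 in wild-type HSCs and rose by 0.66 (adjusted p = 0.0010). Odc1, the polyamine synthesis gene, rose by 0.61 (adjusted p = 0.0012), Gem, a small GTPase gene, by 0.46 (adjusted p = 0.019) and Sik1, a kinase gene that feeds back on CREB coactivators, by 0.44 (adjusted p = 0.0072). Fosb, Crem and Rgs2, named beyond the rule to complete the 8, rose by 0.25, 0.34 and 0.21 (adjusted p = 0.019, 0.032 and 0.046). Ptgs2, Per1, Odc1 and Sik1 were called in all 6 runs without an array, Gem and Fosb in 2, and Crem and Rgs2 in 0. The count of genes called higher was 4 without knockout array 1 or wild-type array 1 or 2, 5 without knockout array 3 or wild-type array 3, and 5 after all arrays were set to the same median.

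Primary response genes, the wider class to which Nr4a genes belong, were called higher more often than lower. Of 30 listed, 29 were tested, and 10 rose, 2 fell and 17 did not pass. That is 41.4% called, against 9.39% of all genes (3.51% higher, 5.88% lower), with a list median of 0.17. At levels of 12 to 14, near the list means given below, 17.9% of clusters were called, but the genes spread over more levels. Fosl1 had a wild-type mean of 4.47 and Dusp1 of 18.50. The share called was 2.46% at levels of 4 to 6 and 1.02% at 18 to 19. Fos, Fosb, Dusp1 and Junb stand in this list and in that of cAMP and CREB genes. The rises included the AP-1 gene Fosl2 by 1.79, the stress gene Gadd45b by 1.70, the stress factor gene Atf3 by 1.56, Klf10 by 1.24 and Klf4, a factor of monocytes and of quiescent cells, by 0.96. Their adjusted p-values were 7.5e-05, 2.2e-04, 1.8e-04, 0.0012 and 0.0018 (limma), and each was called in 6 of 6 runs without an array. Myc, the driver of cell growth described as repressed by NR4A receptors in leukaemia cells, had 12.23, 12.04 and 12.16 in knockout and 13.26, 13.32 and 13.31 in wild-type HSCs, a fall of 1.15 (SE 0.06; adjusted p = 2.7e-04). Klf6 fell by 0.18 (adjusted p = 0.022) and kept its call in 2 of the 6 runs. The number that rose was 6 without knockout array 1 or wild-type array 2, and the number that fell was 1 without knockout array 2 or any wild-type array. List means were 12.40, 12.26 and 12.44 on the knockout arrays, against 12.02, 12.07 and 12.07 on the wild-type arrays.

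Early genes about as bright as Nr4a1 were looked at after their values were seen. Dusp1, a phosphatase gene of this class, read 18.50, 18.50 and 18.49 in knockout and 18.50 on each wild-type array. Fos had 18, 17.98 and 18 in knockout and 18.01, 18.01 and 18.05 in wild-type HSCs, and neither gene passed. Fosb, at a similar level, had 18.63, 18.52 and 18.55 in knockout and 18.25, 18.34 and 18.36 in wild-type HSCs and passed (adjusted p = 0.019). Of the 3 primary response genes above a level of 18, 1 was called, where 2 of 197 clusters (1.02%) at levels of 18 to 19 were called. Egr1, well below that level, differed by -0.05 (adjusted p = 0.71) and Egr3 by 0.33 (adjusted p = 0.17).

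Among 17 partners and cofactors of NR4A proteins, 12 were tested, and 2 rose and 1 fell. That is 25% called, against 9.39% of all genes, with a median of 0.06. The list's array means were 10.02 to 10.15, and 18.4% of clusters at levels of 10 to 12 were called. Its genes spread over more levels, with wild-type means from 6.10 (Rxra) to 13.87 (Rela). Rela, the NF-kB subunit gene whose protein NUR77 can bind, had 14.28, 14.21 and 14.28 in knockout and 13.84, 13.88 and 13.88 in wild-type HSCs and rose by 0.39 (SE 0.04; limma adjusted p = 0.0033). Mdm2, which marks p53 for degradation, rose by 0.33 (adjusted p = 0.024), and the coactivator gene Ncoa3 fell by 0.32 (adjusted p = 0.028). Rela was called in 6 of 6 runs without an array, Mdm2 in the run without knockout array 2 alone and Ncoa3 in 0. Bcl2, whose protein NUR77 binds at mitochondria, differed by 0.08 and the corepressor gene Trim28 by 0.00, both named beyond the rule, and neither passed.

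Genes described elsewhere as regulated by NR4A receptors, gathered over many tissues, moved in both directions. Of 28 listed, 18 were tested, and 2 rose and 3 fell (27.8% called, against 9.39% of all genes; median 0.00). Havcr2, the inhibitory receptor gene TIM-3 that NR4A factors raise in exhausted T cells, had 8.43, 8.06 and 8.27 in knockout and 6.80, 6.96 and 6.89 in wild-type HSCs and rose by 1.37 (SE 0.11; limma adjusted p = 0.0012). Birc3, an inhibitor of apoptosis gene, rose by 0.39 (adjusted p = 0.038). Besides Myc, the death ligand gene Tnfsf10 fell by 0.44 (adjusted p = 0.024) and Ikzf2, a lymphoid factor gene, by 0.33 (adjusted p = 0.030). Havcr2 and Myc were called in 6 of 6 runs without an array, Tnfsf10 in 2 (without knockout array 2 or 3), Birc3 in 1 (without wild-type array 1) and Ikzf2 in 0. Cebpa, the myeloid factor gene through which NR4A receptors act in mouse HSCs, had 8.34, 8.21 and 8.26 in knockout and 7.82, 8.20 and 8.29 in wild-type HSCs. Its groups overlapped, and it did not pass (0.17, SE 0.13; adjusted p = 0.53). Cdkn2c, the inhibitor gene p18 linked to Nr4a2 in HSCs, was 4.42, 4.60 and 4.61 in knockout and 4.59, 4.68 and 4.67 in wild-type HSCs and did not pass either (-0.10, SE 0.08; adjusted p = 0.51).

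**Figure D4:**
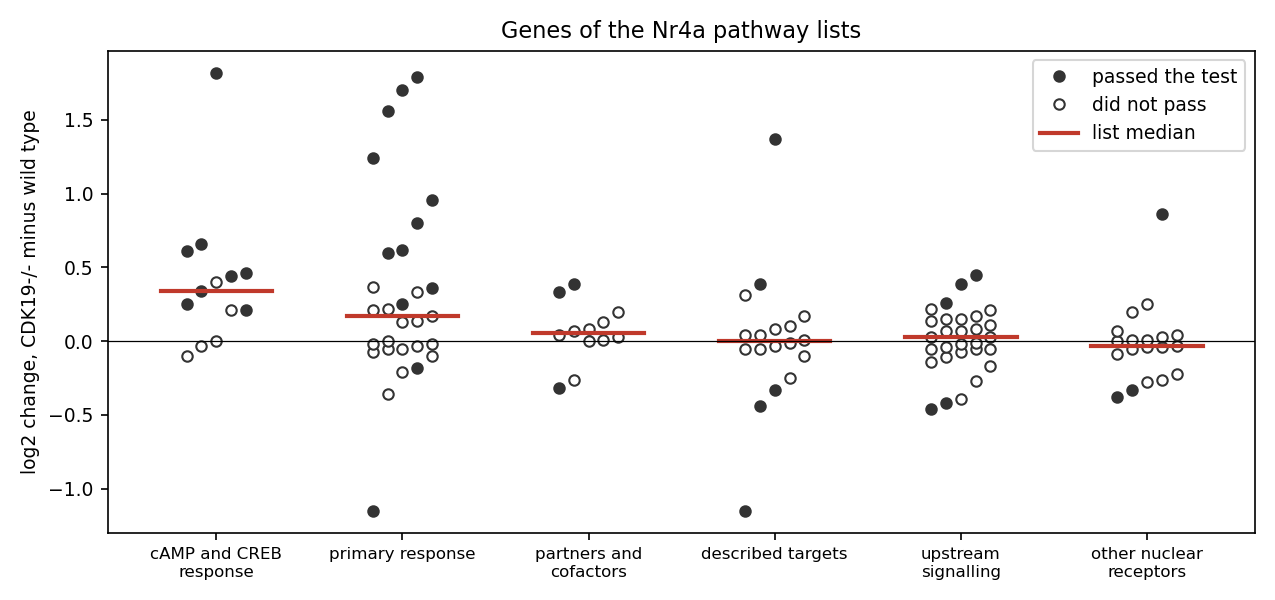
Log2 change (y axis, CDK19-/- minus wild type) of each tested gene in 6 lists around the Nr4a receptors (filled, passed the test; open, did not pass; red line, list median). The median is 0.34 for the cAMP and CREB list and 0.17 for the primary response list, and between -0.03 and 0.06 for the other 4.

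The genes most like each Nr4a gene were those with the smallest root mean square difference over the 6 arrays, after each gene was set to its own mean, out of 13673 other named genes. This measure takes in the size of the genotype difference, so the genes nearest to Nr4a2 and Nr4a3 share a difference of like size by construction. Nearest to Nr4a3 was the clock and stress factor gene Bhlhe40, at 0.103 log2 units, with 11.31, 11.36 and 11.31 in knockout and 9.33, 9.19 and 9.21 in wild-type HSCs. Fosl2 (0.131), Ptgs2 (0.153), the elongation factor gene Ell2 (0.169) and the ubiquitin ligase gene Rnf125 (0.173) followed. Nearest to Nr4a2 was Skil, a feedback inhibitor gene of SMAD signalling, at 0.052, with 13.65, 13.55 and 13.42 in knockout and 12.16, 12.26 and 12.28 in wild-type HSCs. The glycosyltransferase gene B4galt5 (0.059), Havcr2 (0.062), the NF-kB signalling gene Malt1 (0.072) and the Notch target gene Hey1 (0.083) came next. Nr4a2 itself was at 0.341 from Nr4a3, with 28 genes nearer. Those nearest to Nr4a1 were Tmem33, Alyref, Ghr, Tax1bp1 and Stambpl1, at 0.007 to 0.014, none of which passed the test, with differences of 0.07 to 0.10.

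**Figure D5:**
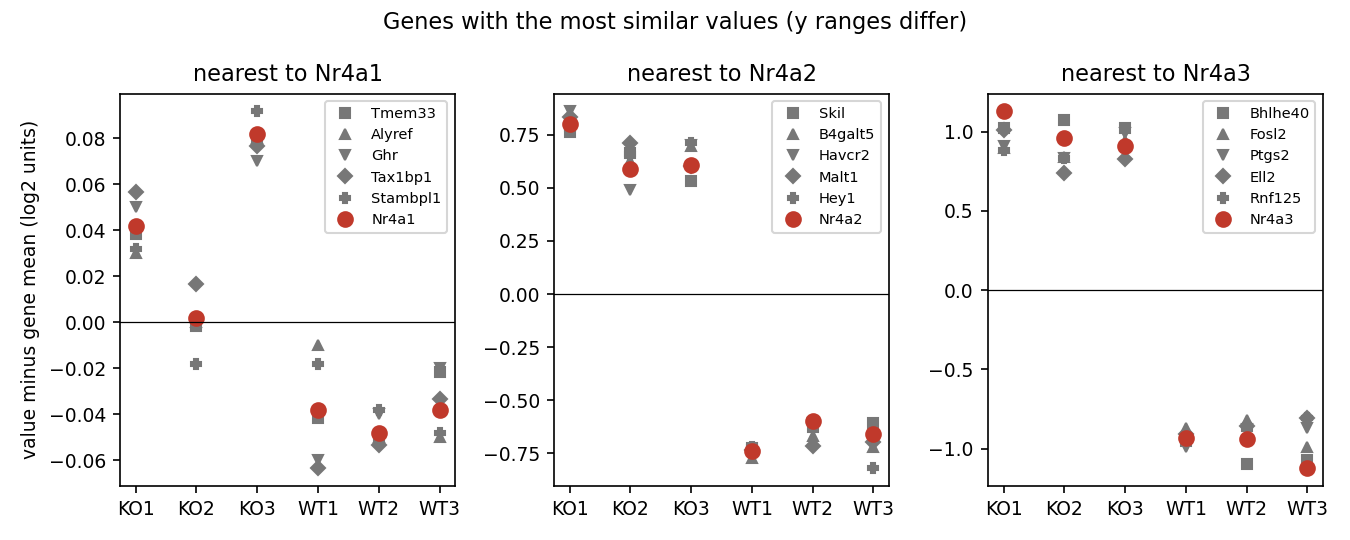
Values minus the mean of each gene (y axis, log2 units; ranges differ between panels) on the 3 knockout (KO) and 3 wild-type (WT) arrays (x axis) for each Nr4a gene (red) and its 5 nearest genes (grey). The nearest genes to Nr4a3 lie 0.103 to 0.173 away and those to Nr4a2 0.052 to 0.083.

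Outside the Nr4a family, 12 genes had a promoter window with at least 4 cores, the number found in the Nr4a windows, so the limit was set after seeing them. Of these 10 were tested, and 4 were called higher, 1 lower and 5 not at all, against 3.51% higher and 5.88% lower among all genes. The part of the cores in these differences was not tested. Aff4, a scaffold gene of the super elongation complex, had means of 12.88 ± 0.15 in knockout and 12.02 ± 0.03 in wild type (SD, n = 3 each; change 0.86, SE 0.08, limma adjusted p = 0.0022). Coq10b, a coenzyme Q binding protein gene, had means of 9.73 ± 0.11 in knockout and 8.83 ± 0.06 in wild type (change 0.90, SE 0.07, adjusted p = 0.0015). Both were called in 6 of 6 runs without an array. Ube2j1 and Slc25a3 rose by 0.30 and 0.25 (adjusted p = 0.048 and 0.033), with calls kept in 0 and 1 of the runs, and Ip6k1 fell by 0.43 (adjusted p = 0.018), kept in 3. None of the 40 other nuclear receptors, the 14 cAMP and CREB genes or the 22 primary response genes with a window had 4 cores, a count of 0 in each list. Only 0.0457% of all windows held at least 4, so lists this small cannot show a lack of them. Cores within a full element TGACGTCA were not counted.

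The 3 genes lie on different chromosomes, 15 for Nr4a1, 2 for Nr4a2 and 4 for Nr4a3. The nearest protein-coding genes on each side, looked up beyond the rule for naming genes, were compared. Beside Nr4a1, Grasp, a scaffold protein gene, had 10.33, 10.26 and 10.29 in knockout and 9.72, 9.80 and 9.98 in wild-type HSCs. It rose by 0.46 (SE 0.08; limma adjusted p = 0.017), a call kept in 2 of 6 runs without an array (adjusted p 0.021 to 0.077). Atg101, an autophagy gene on the other side, differed by 0.11 and did not pass (adjusted p = 0.63). Beside Nr4a3, Sec61b differed by 0.19 (adjusted p = 0.12) and Stx17 by -0.09 (adjusted p = 0.53). Of the neighbours of Nr4a2, Kcnj3 was too dim to test and the other was not analysed here.

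Markers of other blood cells were read on the same arrays, since Nr4a genes are also high in stimulated myeloid and lymphoid cells. Of all genes tested, 3.51% were called higher and 5.88% lower. Of the monocyte and macrophage markers 1 of 7 tested, Cd14, rose, by 0.79 (limma adjusted p = 0.0034), and the list mean was 6.27 to 6.35 in knockout against 6.07 to 6.14 in wild type. Among granulocyte markers 2 of 9 rose, Ctsg and Prtn3, with list means of 8.92 to 9.12 in knockout and 8.78 to 8.88 in wild type, but each of these genes was called in only 1 of 6 runs without an array. Megakaryocyte markers had 2 of 4 higher, Gp9 and Itga2b, at list means of 6.46 to 6.52 in knockout and 6.11 to 6.12 in wild type. In the T and NK cell list 0 of 5 passed, and Cd3e, Cd8a and Ncr1 were too dim to test. Nkg7 of this list was bright, with 12.97, 12.93 and 13.07 in knockout and 12.86, 12.58 and 12.67 in wild-type HSCs. Wild-type means of its other tested genes were 4.25 to 6.29. B cell markers had 2 of 4 lower (5.31 to 5.43 in knockout, 5.77 to 5.80 in wild type). Erythroid markers had 1 of 4 lower, Car1 (-1.04, against a list median of 0.00). The HSC list, which counted Cd48, had 3 of 11 lower, Meis1, Hlf and Kit. Its means were 9.33 to 9.37 in knockout and 9.54 to 9.58 in wild type. Dendritic markers had 1 of 3 higher (H2-Aa, called in 1 of the 6 runs) and mast or basophil markers 1 of 3 (Cpa3, in 5), and stromal and endothelial markers 0 of 2 called. The part of these marker differences in the Nr4a values was not tested.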

How the data were processed

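Gene expression of sorted bone marrow HSCs was read on 6 arrays, 3 CDK19-/- and 3 wild type. The authors deposited 1 table of log2 expression values for 65956 transcript clusters. Log base 2 is assumed from the values, and every fold depends on it. The submitters' processing notes name MAS5 alone. How background, probe summary and normalization were done is not given in the sources used here. No detection calls, scan dates or batches were used, and precision is limited by having 6 arrays. Symbols came from an older platform annotation, 827 of them updated through the gene ID with the RefSeq table: 30604 clusters had 1 symbol, 2146 several and 33206 none. Each gene was read from its brightest cluster.

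The deposited values were not transformed further. Clusters in the dimmest 40% (mean over the arrays up to 4.09) were left out, and 39543 were tested. limma 3.58.1 in R 4.3.3 fitted genotype alone (empirical Bayes with intensity trend), with two-sided p-values adjusted by Benjamini-Hochberg over all tested clusters and a call at 0.05. SEs of single genes are moderated, and the fit was tested on simulated data. Tables used Python 3.11.15 and pandas 2.3.3, plots matplotlib 3.10.9. Promoter windows (RefSeq, GRCm38.p6) matched 3 of 3 genes, and protein sequences were not used here. Alternatives were quantile normalization, a common median, other filters, no trend, all clusters of a gene, a replicate block and each array left out. The genes, lists and tests were chosen with earlier results of these data known. Named were, per list, the 5 largest rises and 5 largest falls among called genes, fixed links to HSCs (Cebpa, Cdkn2c, Myc, the RXR genes), Cdk19 and the 5 genes most like each Nr4a gene.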

Additional observations from a re-analysis of the deposited data

How the results depend on the processing

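The Nr4a differences kept their sign in every alternative run. Without each array in turn, Nr4a3 differed by 1.93 to 2.04, Nr4a2 by 1.27 to 1.37 and Nr4a1 by 0.06 to 0.10, and the change of Nr4a3 exceeded that of Nr4a2 by 0.60 to 0.73. With arrays at a common median Nr4a1 differed by 0.05. Clusters called higher numbered 542 to 971 without each array, against 1172 with all, and those called lower 764 to 1508, against 1914. The higher count was 773 without knockout array 1 and 672, 593 and 542 without wild-type arrays 1, 2 and 3. The lower count was 1167 without knockout array 2 and 1041, 867 and 764 without those wild-type arrays.

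Without each array, 0 to 1 other nuclear receptors were called higher and 0 lower, 1 to 2 signalling genes higher and 1 to 2 lower, 4 to 6 cAMP and CREB genes higher, 1 to 2 partners higher and 0 lower, 1 to 2 described targets higher and 1 to 2 lower, and 6 to 8 primary response genes higher and 1 to 3 lower. At a common median 1 signalling gene, 5 cAMP and CREB genes, 1 partner and 1 described target were called higher and 1 primary response gene lower. With no filter 1 other receptor was called lower, 1 signalling gene higher and 1 lower, and 1 described target higher. With the dimmest 60% left out 4 other receptors were called lower, and with all clusters of a gene averaged 4 other receptors and 4 signalling genes. Without the trend, and after quantile normalization, 1 primary response gene was called lower. The cause was not tested.

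Replicate numbers showed no sign of pairing the arrays: deviations of same-numbered arrays correlated at -0.138, -0.097 and 0.025. Those of arrays with different numbers correlated at -0.127 to 0.209. Since the deviations were taken from means of only 3 arrays, these values cannot exclude pairing. With the number as a replicate block 630 clusters were called higher and 1083 lower. The block left 0 other receptors called either way, 1 signalling gene higher and 1 lower, 5 cAMP and CREB genes higher, 1 partner higher and 0 lower, 1 described target higher and 1 lower, and 1 primary response gene lower. Ranking likeness by Pearson correlation kept 0 of the 5 genes nearest to Nr4a1, 1 of those nearest to Nr4a2 and 0 of those nearest to Nr4a3.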
